A study of Homo sapiens with 12 samples.

Results

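The genes described here are 35 immediate early genes and feedback regulators of mitogen-activated protein kinase (MAPK) signalling, measured in LNCaP cells, a human prostate cancer line derived from a lymph node metastasis. They were taken by gene symbol from a named list. A probe carried the symbol of 34 of the 35, among 20044 genes with a named probe. Of the 34, 25 exceeded the filter on low signal and were tested together with all 12420 genes that exceeded it. The expression of EGR2 was not analysed here.

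Immediate early genes are transcribed within minutes of a growth factor or stress signal, without new protein synthesis, and most of their transcripts decay quickly. The ERK arm of MAPK signalling drives many of them through the serum response factor, its ternary complex partners and CREB, and the products include the AP-1 and EGR transcription factors. Others shut the signal down again, such as the dual-specificity phosphatases (DUSP) that dephosphorylate MAPKs and the Sprouty proteins. The ID proteins, inhibitors of basic helix-loop-helix factors, respond to serum and are direct targets of bone morphogenetic protein signalling through SMADs.

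The study asked what raising FOXA1, a forkhead transcription factor of luminal prostate cells, does to gene expression. One group of 6 arrays came from LNCaP cells transfected with pcDNA3.1_FoxA1, which carries the whole coding cDNA of the gene. The other group of 6 came from LNCaP cells given pcDNA3.1_GFP instead. Both groups received Lipofectamine2000, were kept in RPMI medium with serum, and were harvested at 48 h, so the control cells had been transfected too. The comparison was therefore of late, steady-state levels in a transfected population of 1 cell line, not of an acute stimulus. Arrays are called here by group and by the replicate number in the labels, 1 to 6 in each group. The labels do not say that replicates were separate cultures, nor what arrays of equal number share, and the p-values cover array-to-array spread alone, which may be technical.

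Values are normalized log2 signals of Illumina bead arrays, and a difference of 1 is a doubling of signal. No background was subtracted after deposit, so differences of dim probes understate the change in RNA. Per-array median signals ran from 7.31 to 7.63 before the authors' normalization and were 7.43 on each array after it. The 95th percentile of 784 further probes on the arrays, used here as an estimate of background, lay between 7.62 and 7.70 depending on the array. All 9 measured LNCaP identity genes were above background. KRT5, KRT14 and DCN were above it on 0 of 12 arrays, whereas VIM and ACTA2, at mean levels of 9.48 and 9.89, exceeded it on all 12 and COL1A1 and COL1A2 on 2 each. Of the 4 measured leukocyte markers, CD3E exceeded it on 0 arrays, PTPRC on 2, CD14 on 7 and CD68, at 8.54, on all 12.

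FOXA1 itself had a mean level of 13.42 ± 0.13 (SD, n = 6) on the FOXA1 arrays and 13.30 ± 0.16 (n = 6) on the GFP arrays. The difference of 0.13 (SE 0.09, 95% interval -0.07 to 0.32) was within the spread between arrays, with p = 0.165 in a two-sided exact permutation test over 924 arrangements, where the smallest possible p is 0.00216. The overexpression was thus not visible with this probe, and whether the probe lies inside the transfected cDNA is not given in the sources used here.

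No member passed the test between FOXA1 and GFP arrays, and the estimated differences were small. With limma's moderated test and Benjamini-Hochberg adjustment, 0 of 12420 genes (0%) and 0 of the 25 tested members passed an adjusted p of 0.05. Before adjustment, p was under 0.05 for 203 genes (1.63%) and 0 members. Groups did not overlap for 8 genes (0.0644%) and 0 members. Differences among the 25 members ran from -0.12 for KLF6 to 0.13 for KLF4, with 12 members higher and 13 lower. Their median difference was -0.01, beside 0.01 over all genes tested.

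The precision differed widely among members. For 22 of the 25, the 95% interval of the difference excluded a 1.5-fold change of signal in either direction. The exceptions were ID1, ID2 and ID3, whose intervals reached from -1.49 to 1.42, from -0.80 to 0.55 and from -1.35 to 1.36. For these 3, the comparison of the groups alone leaves a change above 1.5-fold inside the interval. Over all genes tested, the interval excluded a 1.5-fold change of signal for 12012 of 12420. The 22 members include dim probes, with SPRY4 above background on 0 of 12 arrays, IER3 on 1, KLF10 on 2 and JUNB on 4. For such probes a narrow interval limits the change of signal, not that of RNA.

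**Figure D1:**
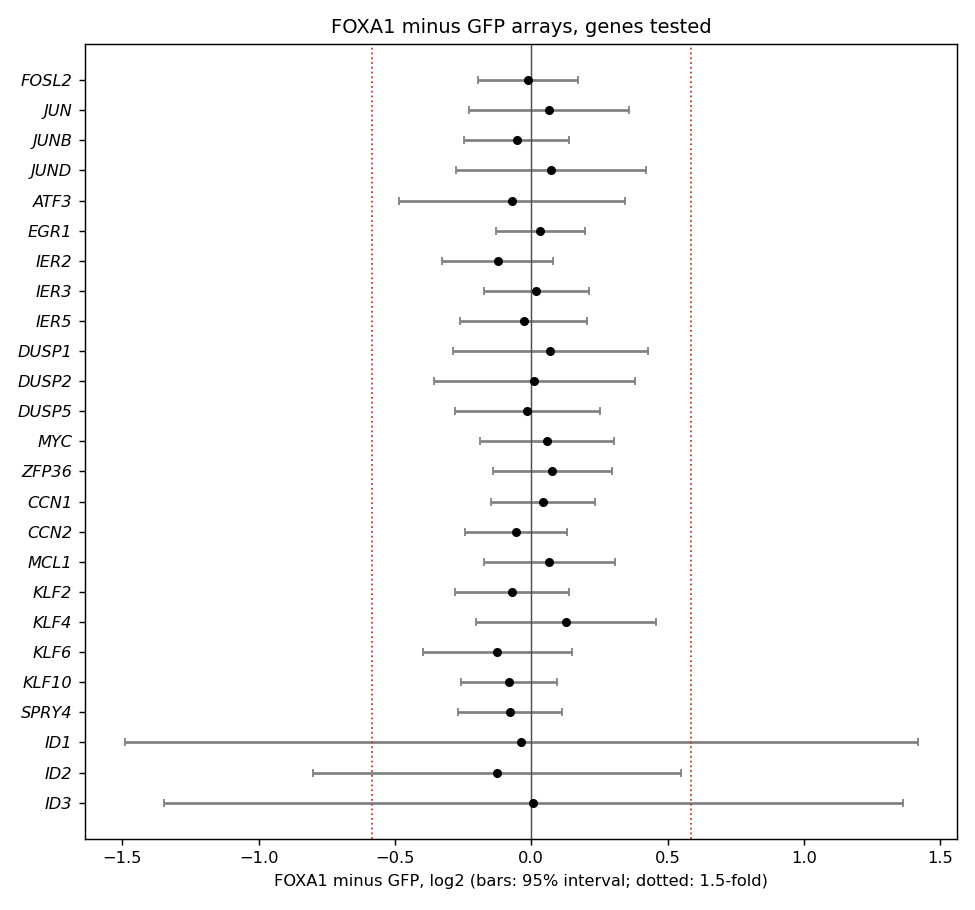
Difference between FOXA1 and GFP arrays (log2, horizontal axis) for the 25 tested genes, with points for the limma estimate, bars for its 95% interval and dotted lines at 1.5-fold. All points lie between -0.12 and 0.13, and the bars of ID1, ID2 and ID3 alone cross the dotted lines.

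Some members differed by replicate number. A moderated F-test of the 6 numbers, fitted with limma beside the group, called 314 of 12420 genes (2.53%) at an adjusted p of 0.05. Among the 25 tested members it called 5, namely ID1, ID2, ID3, ATF3 and DUSP2. Without the filter on low signal it called 381 of 20044 genes (1.9%) and 7 of 34 members, adding FOS and JUN. The spread, meaning the highest minus the lowest of the 6 number means, had a median of 0.49 over the tested members and 0.35 over all genes. It was 1 or more for 298 genes (2.4%) and for 4 members, the 3 ID genes and ATF3. For 14 of the 25 members the same number was highest in both groups, beside 22.9% of all genes tested, and for 7 the same number was lowest, beside 22.5%.

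**Figure D2:**
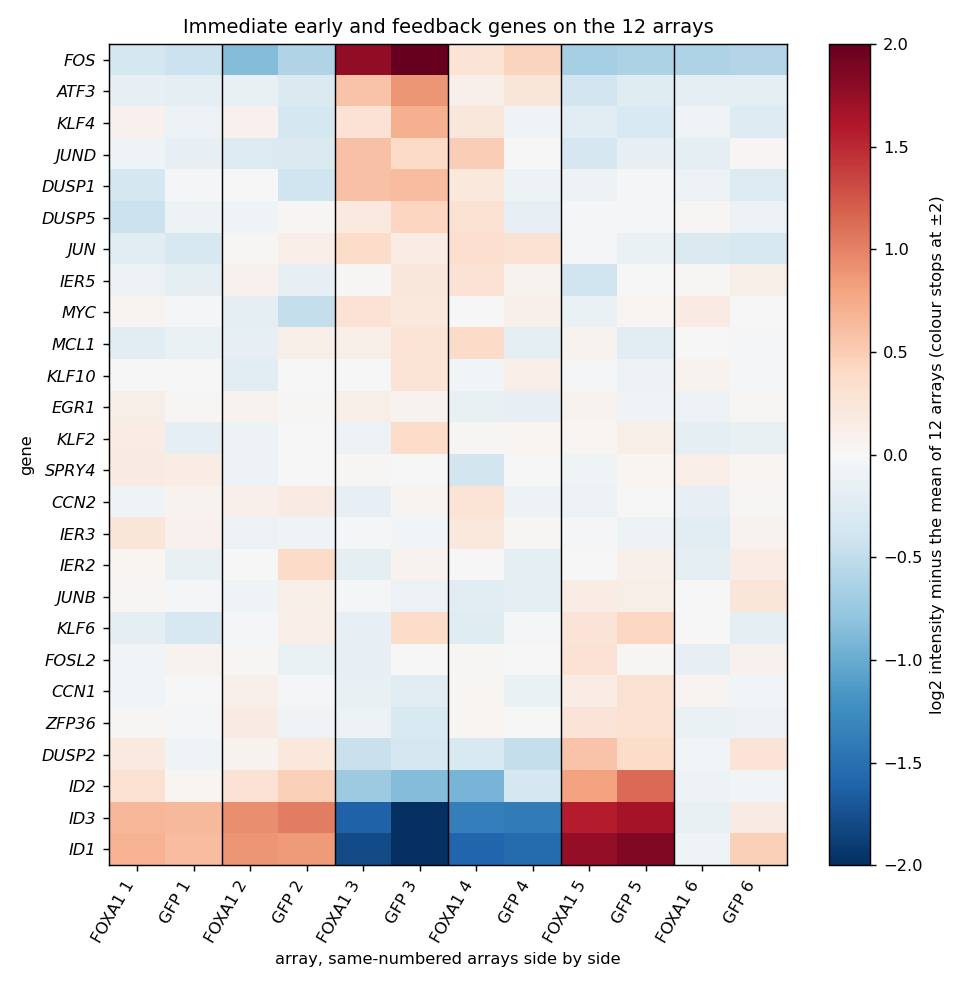
Level of FOS and the 25 tested members on each array, as the log2 difference from that gene's mean over 12 arrays. Columns run by replicate number, with the FOXA1 and GFP arrays of equal number side by side. Genes are ordered by their level on arrays numbered 3 minus that on arrays numbered 5. FOS, ATF3, DUSP1 and JUND are high and ID1, ID2 and ID3 low in the columns numbered 3, in both groups.

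Among the tested members, the ID genes had the widest spread. Their products lack a DNA-binding domain and hold E proteins such as TCF3 in inactive dimers. The stretches just upstream of these genes are shown because the 3 genes moved together across the arrays. Each line gives 250 bases that end at the base before the annotated RefSeq start, on the gene's strand, in build GRCh38.p14, with ID1 at chr20:31605039-31605288 on the plus strand, ID2 at chr2:8681806-8682055 on the plus strand and ID3 at chr1:23559502-23559751 on the minus strand. Capitals mark TGACG, the core of the cAMP response element, and TATAA, the core of the TATA box, each read on either strand.
ID1: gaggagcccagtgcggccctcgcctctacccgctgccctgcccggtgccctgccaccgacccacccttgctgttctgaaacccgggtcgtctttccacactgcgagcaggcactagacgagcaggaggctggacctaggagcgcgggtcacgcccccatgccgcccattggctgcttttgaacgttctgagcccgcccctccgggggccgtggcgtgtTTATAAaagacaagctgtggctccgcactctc
ID2: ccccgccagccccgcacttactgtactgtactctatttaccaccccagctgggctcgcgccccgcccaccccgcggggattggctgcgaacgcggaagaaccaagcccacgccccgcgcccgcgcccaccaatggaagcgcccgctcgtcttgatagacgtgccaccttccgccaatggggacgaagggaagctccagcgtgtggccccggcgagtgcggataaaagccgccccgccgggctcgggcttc
ID3: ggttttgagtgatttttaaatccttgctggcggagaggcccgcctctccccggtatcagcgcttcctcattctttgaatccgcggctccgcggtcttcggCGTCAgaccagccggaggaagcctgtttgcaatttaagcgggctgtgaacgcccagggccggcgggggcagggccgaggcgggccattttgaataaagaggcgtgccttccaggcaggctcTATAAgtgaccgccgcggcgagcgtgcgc

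TATAA lies 32 bases before the ID1 start, in both orientations within 1 run of letters, and 29 bases before the ID3 start, and is not in the ID2 window. TGACG occurs once, in the ID3 window. Of 35116 promoter windows of this length, 18.9% hold TATAA and 21.2% hold TGACG, so neither match is unusual. A match is a run of letters and was not tested as a binding site.

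ID1 read 10.10, 10.29, 7.63, 7.83, 11.17 and 9.33 on FOXA1 arrays 1 to 6. On GFP arrays 1 to 6 it read 10.03, 10.26, 7.26, 7.87, 11.27 and 9.89. Arrays numbered 5 were highest and those numbered 3 and 4 lowest in both groups, with GFP array 3 not above background. The number means spanned 3.78 in measured signal (F-test in limma, adjusted p = 3.42e-07), the second widest of 12420 genes. With GFP array 3 set to its background level, number 5 was at least 11.8-fold above number 3. Equal-numbered arrays of the 2 groups lay within 0.56 of each other. FOXA1 and GFP arrays differed by -0.04 (SE 0.69). A second ID1 probe near background, at a mean of 7.57, spanned 0.64. It too was highest at number 5 (7.85), but its lowest mean was at number 6 (7.21), beside 7.47 at number 3.

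ID3 read 10.40, 10.66, 8.12, 8.37, 11.31 and 9.59 on FOXA1 arrays 1 to 6, and 10.38, 10.76, 7.62, 8.34, 11.39 and 9.90 on GFP arrays 1 to 6. The order of its number means was that of ID1, from 7.87 at number 3 to 11.35 at number 5. The span was 3.48 in measured signal (adjusted p = 3.42e-07 in limma), the third widest of all genes tested. GFP array 3 was not above background here either, and with it set to that level number 5 was at least 10.9-fold above number 3. The group difference was 0.01 (SE 0.64).

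ID2 read 8.87, 8.87, 7.85, 7.64, 9.38 and 8.47 on FOXA1 arrays 1 to 6, and 8.61, 9.05, 7.72, 8.23, 9.71 and 8.52 on GFP arrays 1 to 6. It had the same numbers at the top and the bottom, over a smaller span of 1.76, or 3.39-fold (adjusted p = 0.000814 in limma). Its second probe spanned 2.38. The group difference was -0.12 (SE 0.32).

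The ID calls held without the arrays numbered 3 and 4, while the spans were smaller. Without these 4 arrays, a selection made after seeing the data, ID1 and ID3 each spanned 1.61 and ID2 spanned 1.05, with adjusted p-values of 1.62e-06, 5.53e-07 and 0.000532 in limma. The 3 ID genes passed the F-test in 27 of 27 alternative settings.

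**Figure D3:**
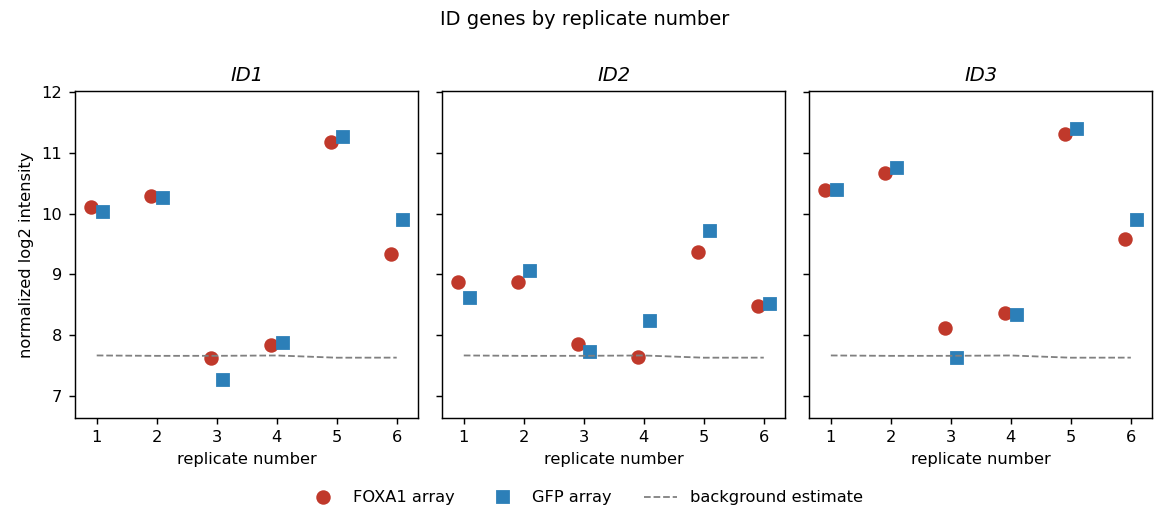
Normalized log2 signal of ID1, ID2 and ID3 (vertical axis) by replicate number (horizontal axis), with 1 point for each array and a separate marker for each group. The dashed line is the background estimate. The points of both groups are lowest at numbers 3 and 4 and highest at number 5 in all 3 panels.

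The AP-1 genes encode the leucine zipper proteins that pair as AP-1, together with the stress-induced relative ATF3. Of the 8 listed, 5 were tested, 0 were called between the groups and 1, ATF3, was called by number. The stretches upstream of FOS and of DUSP1, the phosphatase described after it, are printed as these genes were highest on arrays numbered 3, where the ID genes were lowest. Capitals mark the same letters as above, in the 250 bases before each start, with FOS at chr14:75278578-75278827 on the plus strand and DUSP1 at chr5:172771196-172771445 on the minus strand of GRCh38.p14 (RefSeq).
FOS: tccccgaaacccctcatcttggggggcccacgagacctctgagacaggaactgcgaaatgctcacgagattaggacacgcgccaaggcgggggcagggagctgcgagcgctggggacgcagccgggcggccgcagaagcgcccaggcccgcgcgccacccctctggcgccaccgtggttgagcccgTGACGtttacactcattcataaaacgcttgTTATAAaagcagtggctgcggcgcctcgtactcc
DUSP1: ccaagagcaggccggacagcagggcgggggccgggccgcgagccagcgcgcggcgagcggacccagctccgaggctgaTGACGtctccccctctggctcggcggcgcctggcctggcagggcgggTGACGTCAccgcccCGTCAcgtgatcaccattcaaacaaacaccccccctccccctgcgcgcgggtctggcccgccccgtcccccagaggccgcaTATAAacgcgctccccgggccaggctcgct

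FOS has TGACG 64 bases before its start. DUSP1 has 4 matches, of which 2 overlap as the full element TGACGTCA, a run that 1.65% of all 35116 windows hold. Of the 26 members with a window in this collection, 14 hold TGACG and 2, JUND and DUSP1, the full element. TATAA is in 13, a CArG box, the serum response factor motif, in 2 (EGR1 and EGR2), and the AP-1 site TGANTCA in 0, beside 1.16% and 6.57% of all windows for the last pair. A member was counted if any of its windows held the motif, and EGR2 and SPRY2 have 3 windows each. The percentages are per window, so the 2 measures are not alike. Sites outside these 250 bases were not searched, so a motif absent here may lie further upstream.

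FOS, the founding AP-1 subunit, was not above background on most arrays. It read 7.04, 6.53, 9.17, 7.67, 6.72 and 6.77 on FOXA1 arrays 1 to 6, and 6.97, 6.79, 9.65, 7.83, 6.76 and 6.80 on GFP arrays 1 to 6. It exceeded background on 3 of 12 arrays, namely both numbered 3 and GFP array 4. Its mean level of 7.39 missed the filter by 0.02, so FOS was tested in the fit without a filter only, where the F-test by number gave an adjusted p of 1.33e-07 in limma. The arrays numbered 3, with a mean of 9.41, were at least 3.40-fold above the 4 numbers at which both arrays were below background. The groups differed by -0.15, with an exact permutation p of 0.747.

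ATF3, a repressor of the CREB family induced by many stresses, read 9.94, 9.95, 10.67, 10.20, 9.72 and 9.93 on FOXA1 arrays 1 to 6, and 9.90, 9.81, 10.99, 10.35, 9.87 and 9.90 on GFP arrays 1 to 6. Arrays numbered 3 were highest in both groups, those numbered 4 came next, and the other 8 lay between 9.72 and 9.95. The span was 1.04, or 2.05-fold (adjusted p = 0.00737 in limma). The call was lost without GFP array 3 (adjusted p = 0.132), without both arrays numbered 3 (0.514) and after median centring in place of the authors' normalization (0.0958, with a span of 1.07). Without the arrays numbered 3 and 4 the span was 0.13. Both other ATF3 probes were below background.

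JUND and JUN, the main dimer partners of FOS, were measured well above background on all 12 arrays. JUND ranged from 13.10 to 14.02, with number means of 13.92 at number 3, 13.68 at number 4 and 13.15 to 13.35 at the others. Its span of 0.77 did not pass (adjusted p = 0.0871 in limma). JUN had means of 10.45 and 10.52 at numbers 3 and 4 and 9.89 to 10.27 at the others, with adjusted p = 0.0592. JUN passed at an adjusted p of 0.0498 in the fit without a filter. JUNB and FOSL2, at mean levels of 7.62 and 7.64, were near background, and FOSB and FOSL1 exceeded it on 0 arrays.

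The DUSP genes encode phosphatases that remove the activating phosphates of MAPKs. Of 5 listed, 3 were tested, 0 were called between the groups and 1 by number. DUSP1, a nuclear phosphatase induced by stress and mitogens, read 9.70, 10.05, 10.64, 10.26, 9.95 and 9.94 on FOXA1 arrays 1 to 6, and 10.02, 9.65, 10.67, 9.96, 10.02 and 9.79 on GFP arrays 1 to 6. It was highest on arrays numbered 3 in both groups, but the span of 0.81 did not pass (adjusted p = 0.0864 in limma).

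DUSP2, another nuclear phosphatase, ran with the ID genes instead. It read 8.78, 8.67, 8.15, 8.29, 9.16 and 8.54 on FOXA1 arrays 1 to 6, and 8.51, 8.80, 8.26, 8.12, 8.97 and 8.85 on GFP arrays 1 to 6. Arrays numbered 5 were highest and those numbered 3 and 4 lowest in both groups, over a span of 0.86, or 1.81-fold (adjusted p = 0.0422 in limma). This call held in 12 of 27 alternative settings, and its adjusted p was 0.268 without FOXA1 array 5 and 0.299 without both arrays numbered 5.

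DUSP5, which acts on ERK in the nucleus, had a mean of 8.19 at number 3 and 7.61 to 7.95 at the others (adjusted p = 0.444). DUSP6, the cytoplasmic ERK phosphatase that reports ERK output in many cell types, exceeded background on 0 arrays. Its difference of -0.11 had an exact permutation p of 0.0281 before correction for the 34 genes measured, and an adjusted p of 1.00 in the limma fit without a filter. DUSP4 exceeded background on 2 arrays and differed by -0.20 (exact permutation p = 0.294). The Sprouty genes SPRY2 and SPRY4, whose products act upstream of RAF, exceeded background on 0 arrays.

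**Figure D4:**
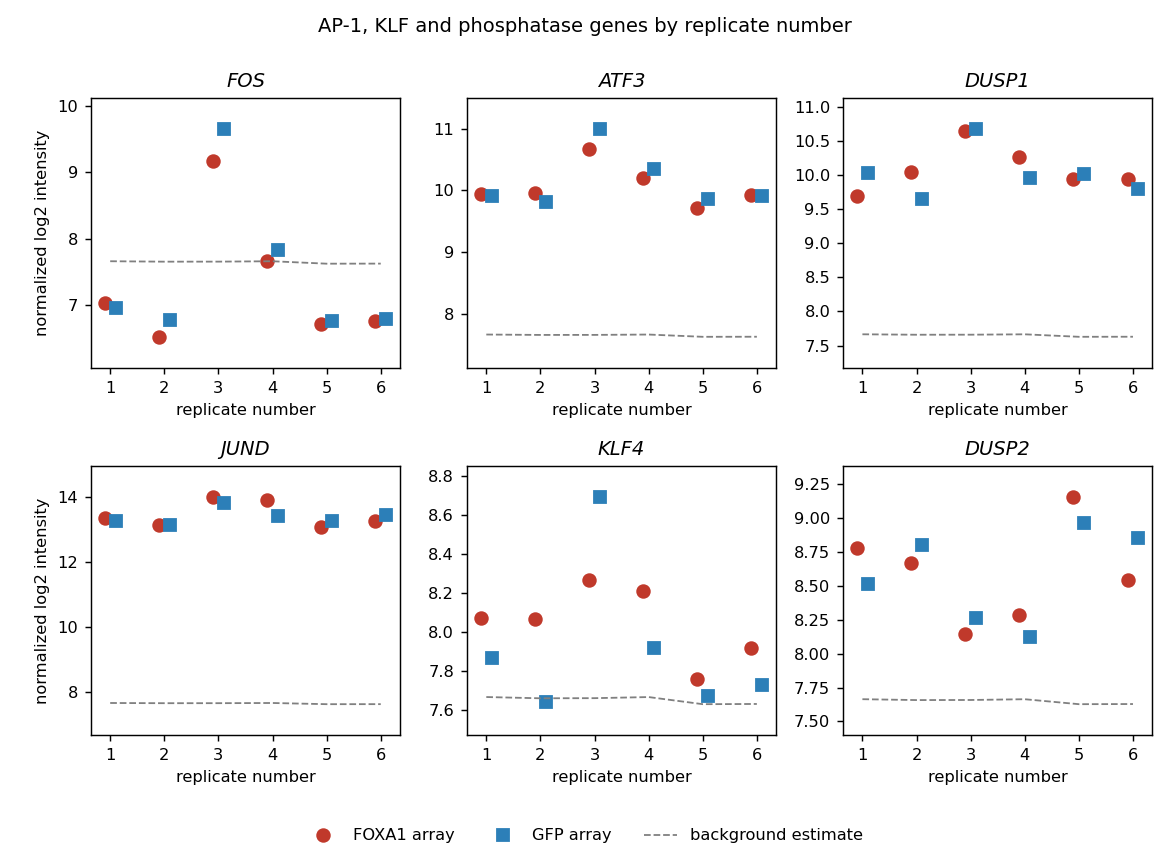
Normalized log2 signal of FOS, ATF3, DUSP1, JUND, KLF4 and DUSP2 (vertical axes, which differ between panels) by replicate number (horizontal axis), with 1 point for each array and a separate marker for each group. The dashed line is the background estimate. FOS reaches 9.17 and 9.65 on arrays numbered 3 and is at or below 7.04 on the arrays numbered 1, 2, 5 and 6, and DUSP2, unlike the others, peaks at number 5.

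The EGR and NR4A genes encode zinc-finger factors and an orphan nuclear receptor of the fast response. EGR1 was just above background, at 7.73 ± 0.12 on FOXA1 and 7.70 ± 0.08 on GFP arrays (SD, n = 6 each). It exceeded background on 9 of 12 arrays. Its number means ran from 7.56 at number 4 to 7.81 at number 3, a span of 0.25 (adjusted p = 0.768 in limma). EGR3 exceeded background on 0 arrays and NR4A1 on 1.

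Among the 3 IER genes, small early response proteins, 0 were called in either test. IER2 was 8.30 ± 0.10 on FOXA1 and 8.42 ± 0.21 on GFP arrays, the smallest unadjusted p of the tested members at 0.218 in limma (adjusted p = 1.00). IER5, an activator of heat shock factor 1, differed by -0.03 and IER3, which exceeded background on 1 array, by 0.02.

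All 4 KLF zinc-finger genes were tested and 0 were called in either test. KLF4, a regulator of epithelial differentiation, averaged 8.48 at number 3 and 7.72 to 8.06 at the others (span 0.77, adjusted p = 0.182 in limma). Its second probe was also highest at number 3, at 8.51, and differed by -0.04 between the groups where the first differed by 0.13, so the sign of its group difference depended on the probe. KLF6, a growth-restraining factor, was instead highest at number 5, at 9.10, with a span of 0.59 (adjusted p = 0.335). KLF2 and KLF10, the latter a TGF-beta early response gene, differed by -0.07 and -0.08 between the groups. Further KLF10 probes, which missed the filter, differed by 0.03 and 0.09.

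The other 6 members have varied roles, and 0 of the 5 tested were called in either test. MYC, the growth-promoting transcription factor, was 12.28 ± 0.18 on FOXA1 and 12.22 ± 0.24 on GFP arrays, with a second probe at a difference of 0.21. MYC was highest at number 3 (12.50) and lowest at number 2 (11.91), with adjusted p = 0.272 in limma. MCL1, an anti-apoptotic BCL2 relative, was 9.80 ± 0.21 and 9.73 ± 0.20. Its 2 probes disagreed by number, the first being highest at number 3 (9.96) and the second lowest there (7.91).

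ZFP36, which destabilizes AU-rich messages, and the matricellular YAP targets CCN1 and CCN2 differed by 0.08, 0.04 and -0.06 between the groups. A second CCN2 probe differed by 0.13, so the sign for CCN2 depended on the probe. CCN1 averaged 8.04 at number 3 and 8.44 at number 5, and ZFP36 8.98 and 9.47, the lowest and highest number means of each. Neither passed the F-test by number, with adjusted p-values of 0.543 and 0.323 in limma. PHLDA1 exceeded background on 1 array.

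**Figure D5:**
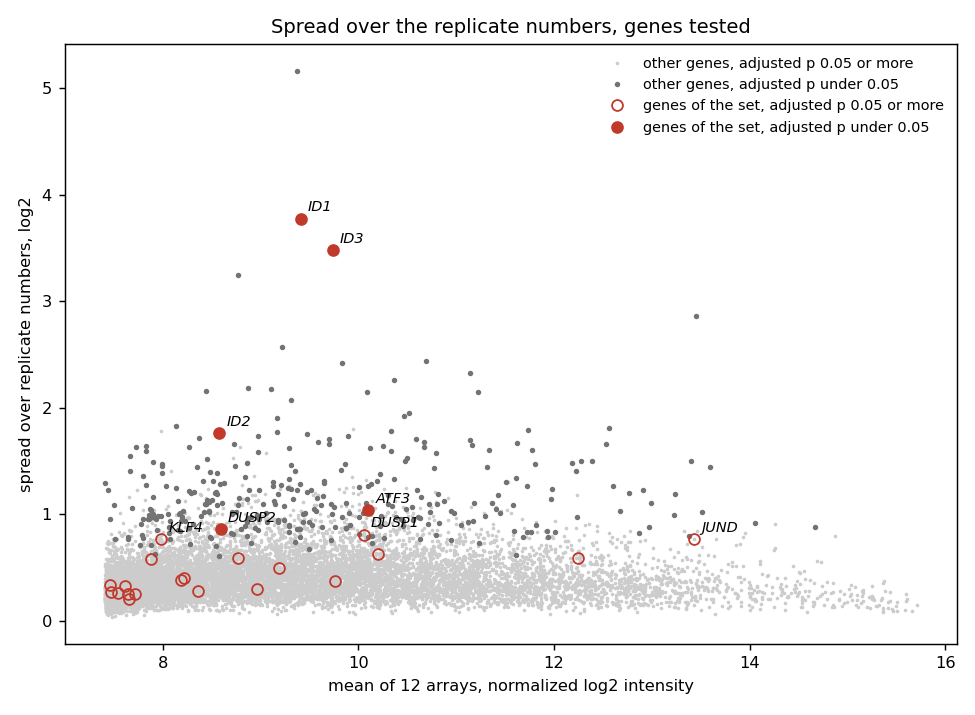
Spread of the 6 number means (log2, vertical axis) against mean level (log2, horizontal axis) for all 12420 tested genes in grey, with the 25 tested members marked. ID1 at 3.78 and ID3 at 3.48 stand at the top of the range, ID2 at 1.76 and ATF3 at 1.04 above most genes, and the remaining members below 1.

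Genes around the set in the same pathways gave 0 calls between the groups and 5 by number. The ERK cascade list, from receptor adaptors to effector kinases, had 12 tested genes, of which 1 was called by number. That gene, MKNK2, an ERK-activated kinase of the translation factor eIF4E, averaged 13.71 at number 3 and 12.49 at number 5 (adjusted p = 0.00625 in limma). The smallest unadjusted p of that list between the groups belonged to MAP2K1, one of the MEK kinases, at a difference of 0.12.

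Of 10 tested regulators of immediate early genes (SRF, its partners and CREB), 0 were called by number. CREB1 differed by -0.28 between the groups (SE 0.18, unadjusted p = 0.141), and ELK4 had an adjusted p by number of 0.116. Of 17 further immediate early genes, 1 was called by number. That was BHLHE40, a helix-loop-helix repressor that is also a target of the hypoxia-inducible factors, with 11.82 at number 3 and 9.87 at number 2 (adjusted p = 2.59e-05). MAFF differed by -0.38 between the groups (unadjusted p = 0.0235, adjusted p = 1.00 in limma).

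Of 10 further ERK feedback genes, 0 were called by number, SPRY1 having an adjusted p of 0.21. IL17RD, a membrane inhibitor of FGF signalling, differed by -0.41 between the groups (unadjusted p = 0.0357, adjusted p = 1.00 in limma). Of 12 further KLF, ID-partner and AP-1 genes, 2 were called by number. TCF3, the E protein bound by ID proteins, averaged 9.43 at number 3 and 8.28 at number 5, opposite to the ID genes (adjusted p = 0.0399). KLF13 averaged 9.93 at number 3 and 8.66 at number 2 (adjusted p = 0.0143). TCF12 differed by 0.10 between the groups.

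Of 6 tested YAP and SMAD targets, 1 was called by number. SMAD6, an inhibitory SMAD that bone morphogenetic proteins induce, averaged 9.91 at number 5, the highest, and 8.68 at number 3, the lowest, with number 4 next above it (adjusted p = 0.00547 in limma), the same order at both ends as the ID genes. SMAD7, the related inhibitor of TGF-beta signalling, spanned 0.39 and differed by 0.14 between the groups. SMAD7 and BAMBI, another gene of this list, were also highest at number 5 but were lowest at number 2, and neither was called. At number 3 they averaged 7.81 and 10.98, beside 7.72 and 10.66 at number 2.

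Other genes moved over the same arrays. The mean of 11 hypoxia and glycolysis genes was 11.19 at number 3, 10.52 at number 4 and 9.91 to 10.10 at the other numbers. It ranged from 9.90 to 11.11 over FOXA1 arrays and from 9.92 to 11.27 over GFP arrays, and all 10 of its tested genes were called by number. The mean of 9 heat shock genes was 12.01 at number 3 and 12.09 to 12.26 at the others, with 0 of 8 called. The mean of 9 LNCaP identity genes was 11.44 at number 3 and 10.95 to 11.16 elsewhere, with TMPRSS2 and HOXB13 called. ACTA2 was called too (adjusted p = 0.000509 in limma), with 11.05 at number 2 and 9.33 to 10.14 at the others, while the mean of the 7 basal and stromal markers ranged from 7.82 to 8.03 over FOXA1 and from 7.78 to 8.12 over GFP arrays. The part of these genes in the ID and FOS results was not tested. In bulk RNA, fewer cells that express a gene and less of its RNA per cell cannot be told apart.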

How the data were processed

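Total RNA from 12 LNCaP samples (6 FOXA1, 6 GFP) was hybridised to Illumina bead arrays. The tables used were normalized log2 values as deposited by the authors, and non-normalized values that were on a log2 scale as deposited. How the authors normalized, and whether they subtracted background, is not given in the sources used here. Probes were named from the platform annotation: 30113 carried 1 symbol, 8 several (not used) and 17202 were unlisted. Where a gene had several probes, the one with the highest mean was used. Of 47323 probes, 6 with missing values were left out and those with a mean above the median (7.41) were kept. Group differences were fitted in R 4.3.3 with limma 3.58.1 (lmFit, eBayes, Benjamini-Hochberg over 12420 genes). Replicate numbers were tested with a moderated F-test in a fit of group plus number, with 5 residual degrees of freedom. Background was the 95th percentile of the 784 probes found in the non-normalized table alone, carried to the normalized scale for each array. The bound for FOS set dim arrays to this level. Precision is limited by the number of arrays. The code was tested on simulated data. Named genes were all members and, for each further pathway list, those called and otherwise the one with the smallest p in either test. BAMBI was added for its order by number, after its values were seen. The members and lists were chosen with earlier results of these data known. Promoter windows came from RefSeq (GRCh38.p14). Alternatives were quantile normalization and median centring of the non-normalized table, other filters, the mean over probes, a variance trend, array weights, a replicate block, and leaving out arrays. The slide as a block was not run, since the files name no slide.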

Additional observations from a re-analysis of the deposited data

Results flagged for a closer look

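For each of the 34 measured genes, the highest and the lowest array of each group of 6 was compared with the nearest other array by Dixon's test, which chance flags in about 1 in 20 groups. It flagged 6 of 68 groups, each by a single GFP array. GFP array 3 stood apart in 4 of them. FOS was 9.65 there, with the next GFP array at 7.83. DUSP1 was 10.67, with the next at 10.02. DUSP5 was 8.31, with the next at 7.90, and KLF4 was 8.69, with the next at 7.92. MYC was lowest on GFP array 2, at 11.77, with the next at 12.20. SPRY4, which was not above background on any array, was highest on GFP array 1, at 7.61, with the next at 7.51.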

How the results depend on the processing

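Between the groups, 0 members, 0 pathway genes and 0 of all genes were called in each of 21 alternative settings. The median difference of the members was 0.02 after median centring (0.04 over all genes) in place of -0.01. The sign of the difference turned in at least 1 setting for 17 of 25 tested members, none of them called. By replicate number, 5 members, 5 pathway genes and 314 of all genes were called. With median centring these counts were 3, 2 and 115, with array weights 8, 13 and 1014, and without the arrays numbered 3 and 4 (chosen after seeing the data) 3, 8 and 542. Leaving out 1 array or 1 number gave 3 (GFP array 3, or number 3) to 9 members (FOXA1 array 4, GFP array 4 or number 4), 1 (number 3) to 18 pathway genes (FOXA1 array 4) and 92 (number 5) to 2045 genes (GFP array 4). The cause was not tested. Equal numbers did not pair the arrays by the rule used: the correlation of deviations from the group means ran from -0.27 (number 4) to 0.64 (number 5), and 4 of 12 arrays correlated best with the array of their own number. Over the members alone it was 0.14 at number 6 and 0.72 to 0.96 at the others, with 0.88 at number 4. Genes of wide spread weigh most in these values, so they do not show that the members as a whole paired by number. ID1, ID2 and ID3 had SDs within groups of 1.48, 0.68 and 1.38, beside a median of 0.20 over the tested members. With the number as a replicate block, limma called 0 genes and 0 members, with 335 genes at an unadjusted p under 0.05 in place of 203. The block gave SEs of 0.11 for ID1, 0.11 for ID2 and 0.10 for ID3, beside differences of -0.04, -0.12 and 0.01. Of the 34 measured members, 11 had a mean level under 7.54, the 95th percentile of the further probes' means over 12 arrays, and others lay close above it, which limits what these arrays could show of them.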

Other observations

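Around ID1 and ID3, the widest spreads over replicate number among the 12420 tested genes belonged to genes of other pathways, named here after their values were seen. COXFA4L2 (formerly NDUFA4L2), a target of the hypoxia-inducible factors, spanned 5.16. PLOD2, a collagen lysyl hydroxylase, spanned 3.25. GDF15, a stress-induced secreted factor of the TGF-beta family, spanned 2.86. Each had an adjusted p under that of ID2 in the F-test in limma.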
